A study of Mus musculus with 18 samples.

Results

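The RNAs contacted by miR-19a-3p and miR-19b-3p were read from chimeric reads of mouse thymocytes. The members are all reads named for 1 of these miRNAs in 6 Ago2 immunoprecipitation (IP) libraries: 5139 of 411434 reads there, or 1.25%, and of 1190995 reads in the series. miR-19b-3p gave 4110 of them and miR-19a-3p gave 1029. The libraries came from whole thymocytes of mice aged 6 weeks, crosslinked by UV at 254 nm and assayed by miR-eCLIP, in which the miRNA held by Argonaute 2 (Ago2) is ligated to its target, so that a read names a miRNA and places its partner in the genome. Of 18 samples in 6 groups of 3, those described here are the Ago2 IP of C57BL/6 mice (wild type, n = 3) and of B6.Mirc14tm1.1Ankr mice (labelled miR181a/b-1-KO, here the knockout, n = 3), and, to choose miR-181 sites, a miR-181-enriched IP of the wild type (n = 3). The same enriched IP of the knockout (n = 3) entered no comparison. The 6 input samples were not analysed here. No label ties replicates to single animals, so p-values measure the spread between these samples, which may be technical.

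miR-19a and miR-19b are made with miR-17, miR-18a, miR-20a and miR-92a from the miR-17-92 cluster, and a further miR-19b copy lies in the related miR-106a-363 cluster. A miRNA guides Argonaute to RNAs that pair with its seed, the bases near its 5′ end, and the bound RNA is usually destabilised. In lymphocytes miR-19 is the member of the cluster best known for promoting growth and survival.

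The mature sequences show what the 2 members share and what sets them apart from their cluster. They are printed as RNA, 5′ to 3′, with bases 2 to 8, the seed, in capitals (RefSeq, GRCm38.p6).
mmu-miR-19a-3p: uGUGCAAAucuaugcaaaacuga
mmu-miR-19b-3p: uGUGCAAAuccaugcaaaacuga
mmu-miR-301a-3p: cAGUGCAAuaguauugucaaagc
mmu-miR-130b-3p: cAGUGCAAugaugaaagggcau
mmu-miR-17-5p: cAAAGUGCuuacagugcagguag
mmu-miR-18a-5p: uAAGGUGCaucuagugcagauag
mmu-miR-25-3p: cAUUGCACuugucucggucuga
Both miR-19 sequences have 23 bases and differ by U11C, counted from the 5′ end with the miR-19a base first. A read that does not cover that base cannot tell them apart, and the part of such reads in the counts of each was not tested. miR-301a-3p and miR-130b-3p are shown because their first 8 bases hold GUGCAA, the first 6 bases of the miR-19 seed, moved by 1 base. miR-17-5p, miR-18a-5p and miR-25-3p, of the same clusters or a related one, have other seeds.

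miR-19a has 1 hairpin and miR-19b has 2. They are shown with the mature miR-19 in capitals, because a chimeric read at such a hairpin could be the precursor itself. Mir19a lies at chr14:115044000-115044081 and Mir19b-1 at chr14:115044305-115044391, both on the plus strand, and Mir19b-2 at chrX:52741983-52742066 on the minus strand (RefSeq, GRCm38.p6).
Mir19a: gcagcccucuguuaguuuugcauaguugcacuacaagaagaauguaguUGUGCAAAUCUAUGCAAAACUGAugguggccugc
Mir19b-1: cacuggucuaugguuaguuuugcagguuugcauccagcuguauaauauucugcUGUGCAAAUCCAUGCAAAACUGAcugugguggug
Mir19b-2: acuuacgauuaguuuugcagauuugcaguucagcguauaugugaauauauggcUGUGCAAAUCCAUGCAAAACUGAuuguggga
The Ago2 IP libraries held 3, 0 and 5 reads over these hairpins, and 0 of them were named for miR-19a-3p or miR-19b-3p. By contrast, 131 reads lay over the Mir18 hairpin, 111 over Mir18b and 70 over Mir20a.

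The 6 libraries held between 43983 and 117849 chimeric reads. The labels were checked against miR-181-5p, which made up between 30.1% and 32.3% of reads in the wild type and between 1.32% and 1.44% in the knockout. Since that loss raises the share of every other miRNA, shares of miR-19 are given over reads not named for miR-181-5p. Defining thymocyte genes (Cd3e, Cd4, Cd8a, Rag1, Dntt and Ptcra) held 2390 chimeric reads of any miRNA, against 2 for B cell genes, 6 for erythroid genes, 9 for macrophage genes and 0 for thymic epithelial genes. Most of the 2390 lay in Rag1 (1101), Cd4 (611) and Cd8a (433), while Ptcra held 2. The thymocyte list had 6 genes and each other list 3. These read counts are contacts, not expression levels.

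The share of miR-19 in contacts did not differ between genotypes beyond the spread between libraries. It held 1.55%, 1.81% and 1.47% of reads other than miR-181 in the 3 wild-type libraries, and 1.39%, 1.52% and 1.38% in the 3 knockout libraries. The groups overlapped: the mean was 1.61% ± 0.176 (SD, n = 3) in the wild type and 1.43% ± 0.0804 (SD, n = 3) in the knockout, a difference of -0.182 percentage points (exact two-sided permutation test, p = 0.2, where 0.1 is the smallest possible; adjusted p = 0.24 over 6 such tests). Over all chimeric reads, miR-181 included, the sign turned, from 1.111% ± 0.128 to 1.41% ± 0.0792. The 95% Wilson interval, which covers counting error only, was widest in the shallowest library, wild-type replicate 3, at 1.34% to 1.62%. A read count depends on the amount of the miRNA and of its targets, and in a mixed population fewer cells of a type and less RNA per cell cannot be told apart.

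miR-19b was the more abundant member, and its mean share was lower in the knockout over reads other than miR-181, but higher, by 0.201 percentage points, over all reads. Its share was 1.24%, 1.46% and 1.26% in the wild type and 1.105%, 1.20% and 1.07% in the knockout, so that the groups did not overlap (1.32% ± 0.123 against 1.13% ± 0.0681, SD, n = 3 each; exact permutation p = 0.1, adjusted p = 0.15). For miR-19a the share was 0.311%, 0.348% and 0.218% against 0.280%, 0.321% and 0.312%, which overlapped (exact permutation p = 0.8, adjusted p = 0.8). miR-19a therefore formed 20.0%, 19.2% and 14.8% of miR-19 reads in the wild type and 20.2%, 21.1% and 22.5% in the knockout. These ranges did not overlap either (18.01% ± 2.80 against 21.3% ± 1.17, SD, n = 3 each; exact permutation p = 0.1, adjusted p = 0.15), and without wild-type replicate 3 the difference fell from 3.26 to 1.66 percentage points.

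**Figure D1:**
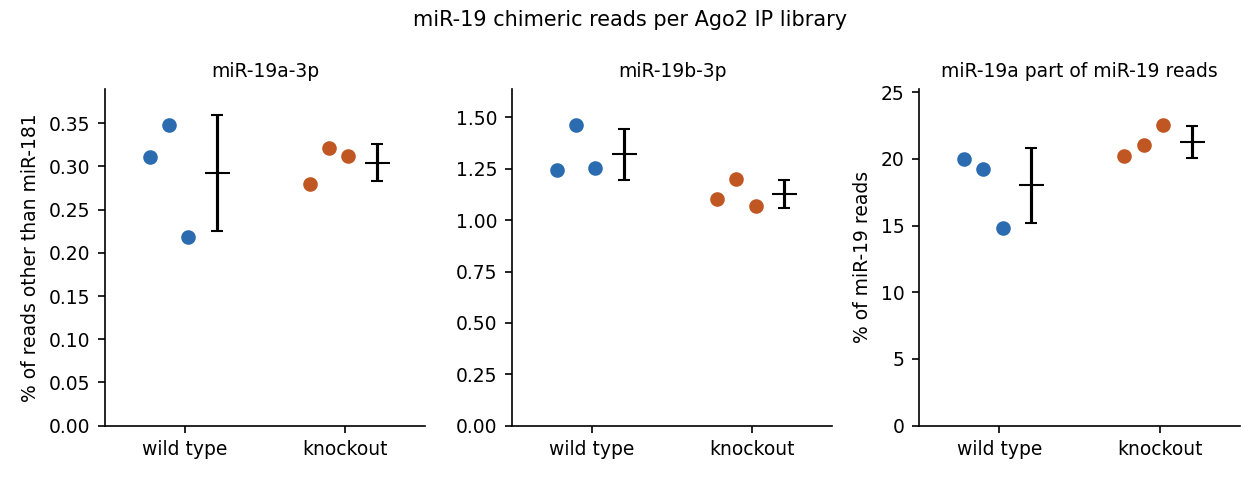
Share of miR-19a-3p and of miR-19b-3p in chimeric reads other than miR-181 (left and middle, percent) and miR-19a-3p as a percent of miR-19 reads (right) in each of 3 wild-type and 3 knockout Ago2 IP libraries, with mean ± SD in black. The miR-19b points of the knockout (1.07% to 1.20%) lie below those of the wild type (1.24% to 1.46%), while the miR-19a points overlap.

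In a fit over all 117 miRNAs tested (edgeR quasi-likelihood test with TMM scaling and Benjamini-Hochberg adjustment), 10 miRNAs, or 8.55%, passed an adjusted p of 0.05 (3.42% higher and 5.13% lower in the knockout), and 40 had an unadjusted p under 0.05. Neither miR-19 was among them. miR-19b had a log2 fold change of -0.26 (SE 0.0801, adjusted p = 0.062) and miR-19a of -0.02 (SE 0.138, adjusted p = 0.91), against a median of 0.02 over 113 miRNAs outside the miR-181 family, 15 of which were lower than miR-19b. The miR-19b call depended on the setting: it passed with DESeq2 (adjusted p = 0.048), without a filter on low counts (0.0061) and without knockout replicate 2 (0.0029), at log2 fold changes between -0.26 and -0.30. With library sizes alone, which count the loss of miR-181 as a gain of the rest, 89 miRNAs passed (76.1%; 73.5% higher and 2.56% lower), the median moved to 0.55, and miR-19b stood at 0.29 and miR-19a at 0.53, both at or below that median.

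The co-transcribed miRNAs had no called change. miR-17-5p was at -0.04 (SE 0.042, adjusted p = 0.50), miR-20a-5p at -0.11 (SE 0.0405, adjusted p = 0.087) and miR-18a-5p at 0.12 (SE 0.0555, adjusted p = 0.16) on the same log2 scale. By reads in the Ago2 IP libraries, miR-19b ranked 18 and miR-19a 38 among miRNAs outside the miR-181 family, while miR-20a-5p held 15052 reads, miR-17-5p 13703 and miR-18a-5p 4419. miR-92a-3p and miR-106b-5p were not analysed here.

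The contacts of miR-19 were spread widely. Of its 5139 reads, 4821 (93.8%) lay in 2440 named genes, 1522 of which had 1 read, and 4677 reads (91.0%) lay in protein-coding genes. Reads were joined into a site where neighbouring positions of any miRNA lay at most 20 nt apart on a strand, and miR-19 had reads at 4600 sites, 4303 of them with 1 read. Reads at such sites made up 83.7% of miR-19 reads, against 69.1% to 78.3% for the other miRNAs with 3000 to 7000 reads, such as miR-18a-5p (4419 reads, 73.7%) and miR-106a-5p (5211 reads, 72.4%). The largest miR-19 site held 24 reads, whereas the largest sites of those other miRNAs held between 41 and 253.

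Satb1, which encodes a chromatin organiser needed for thymocyte development, was the gene with most miR-19 reads and had at least 3 in every library. Its reads numbered 12, 6 and 3 in the wild type and 9, 12 and 4 in the knockout, or 46 in all, and the groups overlapped. These lay at 30 sites, the largest of which held 9 reads. miR-19 made up 2.39% of the Satb1 reads other than miR-181 (46 of 1925, 95% Wilson interval 1.80% to 3.17%), against 1.52% over all such reads.

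The other genes below were chosen after their values were seen, as those with at least 10 miR-19 reads, 40 genes that together held 595 reads (11.6% of all). Several encode regulators of T-cell development. Ccnd3, encoding the cyclin D3 that drives proliferation of immature thymocytes, had 5, 9 and 1 reads in the wild type and 4, 5 and 6 in the knockout. Lef1, encoding a transcription factor of Wnt signalling, had 7, 1 and 3 reads against 4, 4 and 4. The transcription factor genes Tox and Bcl11b had 21 and 19 reads, and in all 4 genes the genotypes overlapped.

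Mylip, encoding a ubiquitin ligase that lowers the LDL receptor, held 9, 3 and 3 miR-19 reads in the wild type and 4, 4 and 2 in the knockout. Socs1, encoding an inhibitor of cytokine signalling through JAK and STAT proteins, held 2, 2 and 1 against 7, 1 and 5. Taok1, encoding a stress kinase, held 4, 0 and 1 against 4, 6 and 5. As a share of the Taok1 reads other than miR-181, miR-19 held 3.33%, 0% and 2.04% in the wild type and 3.77%, 5.26% and 5.81% in the knockout, which did not overlap (exact permutation p = 0.1, the smallest possible). That p was not adjusted over genes, and the fitted change of Taok1 miR-19 reads in the knockout was not called. Its log2 fold change was 1.46 (SE 0.72, adjusted p = 0.15 by edgeR). The 0% was 0 of 80 reads, which allows up to 3.75%. Rag1, encoding the recombinase of antigen receptor genes, had 8, 1 and 0 reads against 3, 1 and 1, most of them from 1 library.

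**Figure D2:**
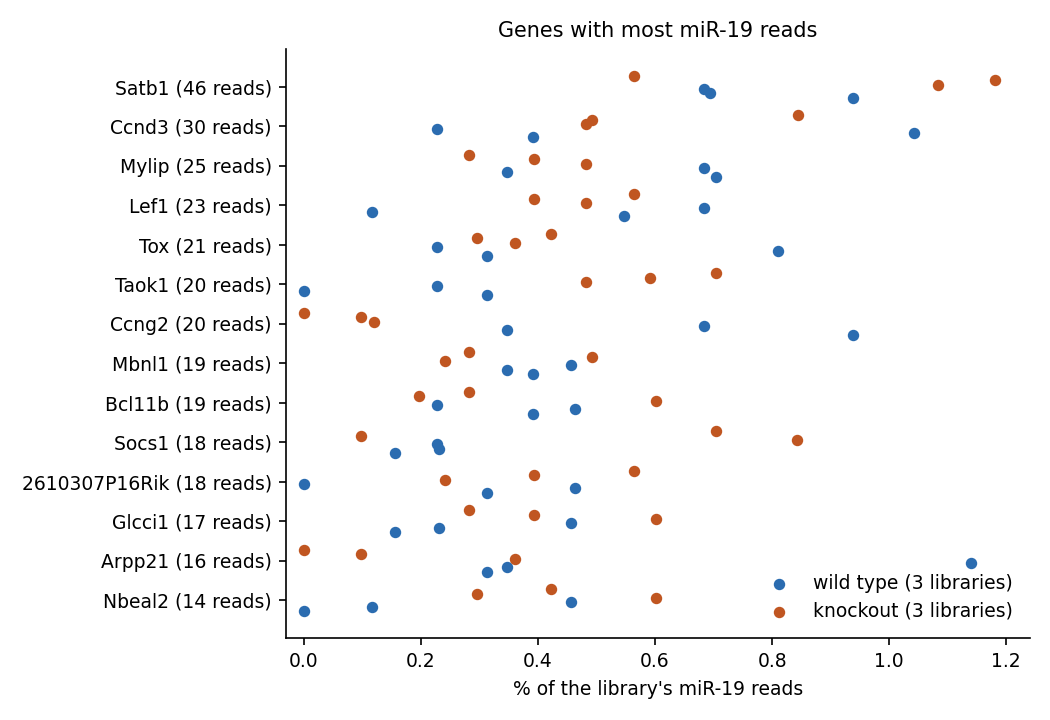
The 14 genes with most miR-19 reads: each point is the percent of 1 library's miR-19 reads that lay in the gene, for 3 wild-type and 3 knockout Ago2 IP libraries, with the total of reads beside the name. Satb1 has the highest total, with 46 reads, though not the highest share in every library, and Ccng2 is the gene among these whose 3 knockout points (0 or 1 read each) lie below all 3 wild-type points (3 to 12 reads).

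To ask where miR-19 stood out from other miRNAs in the same RNA, its reads per gene were set against those of all other miRNAs outside the miR-181 family, with the library as a block. With TMM scaling, 20 of 173 genes passed (11.6%; 6 higher, 3.47%, and 14 lower, 8.09%), and the median log2 fold change over all genes was -0.84. With library sizes alone, 17 passed (9.83%; 11 higher, 6.36%, and 6 lower, 3.47%), with a median of -0.19. The balance of higher and lower calls thus moved with the scaling, and 12 genes called in the same direction under both are described here.

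Mylip, Socs1, Ccng2, Suz12, Ccm2 and Lef1 were higher for miR-19 than for other miRNAs. In Mylip, miR-19 made up 12.5%, 10.3% and 16.7% of reads other than miR-181 in the wild type and 11.4%, 11.8% and 8.0% in the knockout. All 6 libraries lay far above the overall 1.52% (log2 fold change 2.46, SE 0.419, adjusted p = 1.1e-06 by edgeR with TMM; 3.08 with library sizes alone). In Socs1 the share was 6.90%, 10% and 10% in the wild type and 29.2%, 3.57% and 19.2% in the knockout (log2 fold change 2.63, SE 0.469, adjusted p = 2.5e-06). All 6 values exceeded the miR-19 share of their library, and the knockout values were the more scattered. Both genes passed the low-count filter only through their miR-19 reads, as set out below.

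Ccng2 encodes cyclin G2, an unusual cyclin that is high in resting cells. miR-19 made up 16.2%, 9.68% and 10% of its reads other than miR-181 in the wild type and 4.76%, 11.1% and 0% in the knockout, the last being 0 of 9 reads, which allows up to 33.3% (log2 fold change 2.31, SE 0.455, adjusted p = 1.9e-05). Without wild-type replicate 1, which gave 12 of its 20 miR-19 reads, the TMM fit put it at 1.52 (adjusted p = 0.072). Suz12, encoding a core subunit of the Polycomb repressive complex PRC2, held 10 miR-19 reads of 53 (18.9%, Wilson interval 10.6% to 31.4%; log2 fold change 3.17, SE 0.514, adjusted p = 1.9e-05). Ccm2, encoding a scaffold protein mutated in cerebral cavernous malformations, held 13 of 132 (9.85%; log2 fold change 2.13, SE 0.519, adjusted p = 0.00085), and Lef1 23 of 468 (4.91%; log2 fold change 1.08, SE 0.378, adjusted p = 0.041). With TMM, Lef1 lost its call when any library but wild-type replicate 2 was left out (log2 fold change 0.77 to 1.104, adjusted p from 0.062 to 0.18 by edgeR), and kept it in each case with library sizes alone. Of these 6 genes, all but Ccng2 and Lef1 exceeded the library's own miR-19 share in 6 of 6 libraries, and those did so in 5. The low-count filter used the same cutoff, relative to column size, for miR-19 and other columns. A gene of few reads could thus enter the test through its miR-19 reads. Suz12 did so, with 1 to 4 miR-19 and 4 to 9 other reads per library, as did Mylip, Socs1, Ccng2 and Ccm2. Of the 6 genes, Lef1 alone, with 45 to 131 other reads per library, would have entered without its miR-19 reads. The calls of the others, and the counts of higher genes and of libraries above the share, are therefore partly set by the filter. These counts are no added support.

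The genes lower for miR-19 under both scalings were the mitochondrial mt-Rnr1 and ND4, Rn18s-rs5, Gm4258, Actb and Runx1. With library sizes alone, Actb and Gm4258 lost the call when any 1 of the 6 libraries was left out (adjusted p from 0.070 to 0.15 and from 0.055 to 0.16 by edgeR), and Runx1 when any but knockout replicate 3 was (0.10 to 0.14). Rn18s-rs5 lost it without wild-type replicate 1 or 2 or knockout replicate 1 (0.074 to 0.22), and ND4 without wild-type replicate 1 (0.074). All kept their sign, and of the 6 genes mt-Rnr1 alone kept its call with each library left out under both scalings. The mitochondrial ribosomal RNA gene mt-Rnr1 held 1 miR-19 read beside 974 of other miRNAs, and ND4, encoding a subunit of respiratory complex I, held 1 beside 677. Pooled over libraries, the miR-19 share of reads in genes was 0.0659 times that of other miRNAs in mt-Rnr1 (exact 95% counting interval 0.00167 to 0.368) and 0.0948 times in ND4 (0.0024 to 0.530). Rn18s-rs5, annotated as a pseudogene, had 10 beside 1643, and Gm4258 10 beside 1616. Actb, encoding beta-actin, had 4 beside 891, and Runx1, a transcription factor of T-cell development, 3 beside 765. In all 6 genes the pooled miR-19 share, between 0.103% and 0.615%, was below the overall 1.52%.

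**Figure D3:**
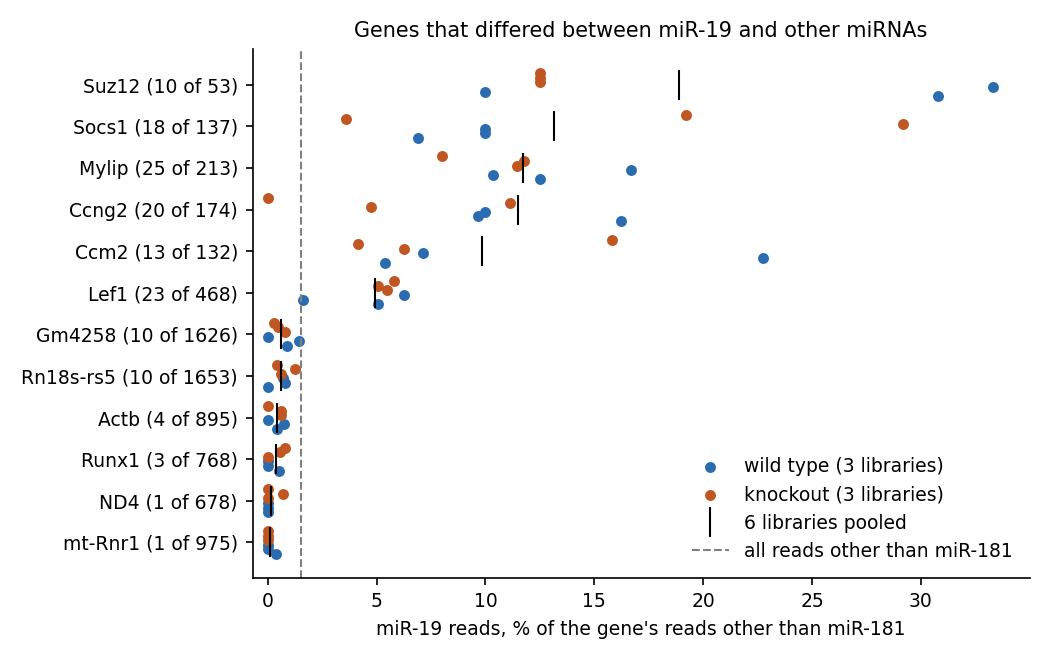
miR-19 reads as a percent of each gene's reads other than miR-181, for the 12 genes called in the same direction with TMM scaling and with library sizes alone: points are 3 wild-type and 3 knockout libraries, black bars pool all 6, and the numbers give miR-19 reads of all such reads. Pooled shares lie between 4.91% and 18.9% in the 6 higher genes and between 0.103% and 0.615% in the 6 lower ones, on either side of the dashed line at 1.52%.

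Lowering the filter to 10 reads per gene, with library sizes alone, tested 5298 genes and called 17 (0.321%), 16 of them higher (0.302%) and 1 lower (0.0189%). The 6 higher genes above were among these 16. The additions included Nbeal2, needed for platelet granules (14 of 90 reads, 15.6%), Gna11, a G protein subunit (10 of 55, 18.2%), Rnf167, a ubiquitin ligase (8 of 32, 25%), and Cbx7, a Polycomb subunit of PRC1 (6 of 19, 31.6%). Lonrf1, Hsd11b1, Epc1, Fam162a, Slc35e1 and Api5 had between 4 and 10 miR-19 reads each, and 3 of them, at 4 reads, rest on very few molecules. Fam162a and Slc35e1, with 6 and 7 reads of other miRNAs, reached 10 reads only through miR-19. Their higher calls are thus partly set by the filter.

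At the level of sites, 28 held at least 5 miR-19 reads and 4 held at least 10. By the rule of at least 3 reads in each library of a genotype, 2 sites were reproducible in the wild type (Mylip and Ccng2) and 1 in the knockout (Ccnd3), and none in all 6. Counting reads of the same position and miRNA once left 1 of them. Sites are given in mm10 coordinates, and their exon, intron or UTR class was not analysed here.

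The Mylip site, at chr13:45411681-45411868 on the plus strand, held 24 of the gene's 25 miR-19 reads, at 17 positions. It held 8, 3 and 3 in the wild type and 4, 4 and 2 in the knockout, and its median position was 137 nt before the annotated gene end. The same cluster held 93 reads of the miR-17 seed family (miR-17, miR-20a, miR-20b, miR-93 and miR-106a), whose median position was offset from that of miR-19 by -89.5 nt, or upstream, and 18 of miR-142a-3p.

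The Ccng2 site, at chr5:93270884-93270987 on the plus strand, held 18 miR-19 reads at 13 positions: 10, 3 and 3 in the wild type and 1, 1 and 0 in the knockout. It also held 57 reads of the miR-17 family, with a median 22.5 nt downstream, 29 of miR-142a-3p, 14 of miR-181-5p and 13 of the miR-130 and miR-301 family. The Socs1 site, at chr16:10783835-10783904 on the minus strand, lay 55 nt before the gene end and held 17 of 18 reads (2, 2 and 1 against 7, 1 and 4). Its other reads included 28 of let-7, 23 of miR-30, 2 of the miR-130 and miR-301 family, 1 of the miR-17 family and 1 of miR-142a-3p.

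At some other sites miR-19 made up most or all reads. In Lef1, the site at chr3:131156135-131156187 on the plus strand held 8 reads, all of miR-19b and none of another miRNA. In Nbeal2, 8 of 9 reads at chr9:110624899-110624932 on the minus strand, 122 nt before the gene end, were miR-19. In Ccm2, 8 of 12 reads at chr11:6596626-6596659 on the plus strand, 123 nt before the gene end, were miR-19. At the third reproducible site, in Ccnd3, miR-19 shared the reads with other miRNAs. This site, at chr17:47529850-47529889 on the plus strand and 69803 nt from the annotated end, held 19 miR-19 reads of 40. In Rbfox1 and Cep112, 5 reads each lay at a single position, and the part of repeated molecules there was not tested.

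The change at target genes in the knockout was asked over gene and miRNA class together (miR-19, miR-181, other). With edgeR's own filter on low counts no gene held enough miR-19 reads to be tested among 1463 features, of which 18.7% were called (2.73% higher and 16% lower). With a minimum of 10 reads, 40 miR-19 features were tested among 6997, 1 was called (Ccng2) and 2 had an unadjusted p under 0.05. Of all 6997 features, 26.5% were called, 1.49% higher and 25% lower. Both sets of features include those of miR-181, which is lost in the knockout, so the lower calls do not describe the other miRNAs. The median log2 fold change of the 40 was -0.07, with 17 above 0, against 0.098 for features of other miRNAs and -0.12 for all features.

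Ccng2 fell in the knockout, and not for miR-19 alone. Its miR-19 reads numbered 12, 3 and 3 in the wild type and 1, 1 and 0 in the knockout (log2 fold change -3.00, SE 0.827, adjusted p = 0.0022 by edgeR). Its reads of other miRNAs numbered 62, 28 and 27 against 20, 8 and 9 (log2 fold change -1.72, SE 0.275, adjusted p = 1.7e-07). The miR-19 share of the gene's reads other than miR-181 did not differ beyond its spread (11.96% ± 3.69 against 5.29% ± 5.57, SD, n = 3 each; exact permutation p = 0.3). Fitted on miR-19 reads alone, the gene missed the threshold (adjusted p = 0.078), and without wild-type replicate 1 it held too few reads to be tested.

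miR-19a and miR-19b shared genes and, far less, sites. Of 744 genes with miR-19a reads, 417 (56.0%) had miR-19b reads, which is 19.7% of the 2113 genes of miR-19b. Of 986 miR-19a sites, 104 (10.5%) were among the 3718 sites of miR-19b (2.80% of them). The overlap of miR-19b with another miRNA of like depth is not given beside these, so they cannot be called particular to the pair. No gene passed the filter for a test of miR-19a against miR-19b. With a minimum of 10 reads, 0 of 40 genes were called by edgeR (0%), with 6 at an unadjusted p under 0.05. The 2 miRNAs were therefore not distinguishable by gene at this depth, which is no sign that they act alike.

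The distribution of miR-19b reads was compared with that of every miRNA of at least 1000 reads by the cosine of read counts, which is 1 for proportional counts and 0 for no shared gene or site. It grows with depth, so a shallow miRNA is at a disadvantage. Over gene spans the 5 most like miR-19b were miR-142a-3p (0.685, 135712 reads), miR-17-5p (0.590), miR-20a-5p (0.588), miR-20b-5p (0.579) and miR-16-5p (0.564). miR-19a, with 1029 reads, followed at 0.559. Over sites miR-19a came first of 41 at 0.180, ahead of miR-142a-3p at 0.0990 and miR-20a-5p at 0.0943.

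Among the 11 compared miRNAs with under 1500 reads, the 3 most like miR-19b over sites were those that share at least 6 bases of its seed: miR-19a at 0.180, miR-301a-3p at 0.0722 and miR-130b-3p at 0.0489. The next was miR-181c-5p at 0.0330. Of the 36 compared miRNAs found in the sequence table, no other shared 6 bases in this way. Over gene spans the same 11 ranked otherwise. There miR-19a (0.559) and miR-301a-3p (0.534) came first, but miR-130b-3p (0.372) was at rank 7. Ahead of it were miR-484 and miR-669o-3p (0.413 each), miR-181c-5p (0.406) and miR-466e-3p (0.392). These are descriptions over sites and gene spans of the same libraries, in which counts share depth and target abundance.

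**Figure D4:**
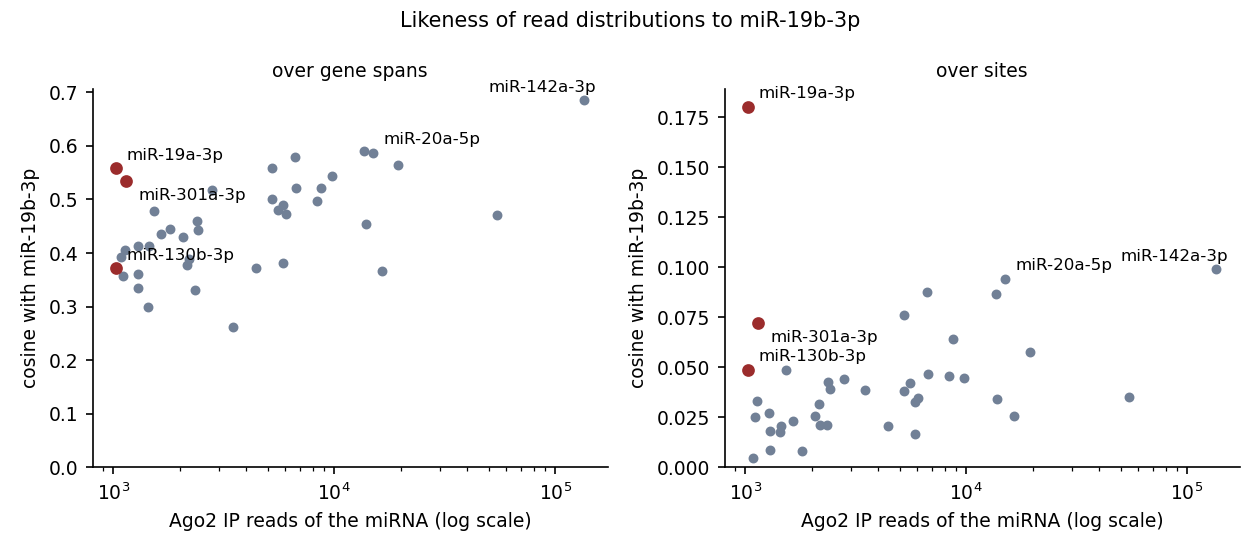
Cosine of each miRNA's Ago2 IP read counts with those of miR-19b-3p, over gene spans (left) and over sites (right), against the miRNA's reads on a log scale. Red points share at least 6 bases of the miR-19 seed; over sites miR-19a-3p is highest at 0.180, and miR-301a-3p and miR-130b-3p lie above the other miRNAs with under 1500 reads.

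How often miR-19 reads lay at sites of other families was compared with all other reads outside the miR-181 and partner families, in a comparison added after the data were seen. Sites with at least 3 miR-142a-3p reads held 9.59% ± 0.921 (SD, n = 6) of miR-19 reads and 11.4% ± 0.108 of other reads, a difference of -1.79 percentage points with the same sign in 6 of 6 libraries. For let-7 the difference was -1.53, for miR-15/16 -1.52, for miR-18 -0.42 for miR-26 -0.34 and for miR-181 -2.09, also negative in 6 of 6. Each had an exact two-sided sign-flip permutation p of 0.031, the smallest that 6 libraries allow, and 0.052 after adjustment over 10 families, so that none passed. With at least 10 partner reads, the signs for miR-18 and miR-26 turned.

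For the miR-17 family the shares were close, at 5.48% ± 0.755 (SD, n = 6) of miR-19 reads and 5.90% ± 0.10 of other reads (2 of 6 libraries positive, exact permutation p = 0.31). The sign of that difference changed in 4 other settings. The miR-130 and miR-301 family, of overlapping seed, was the 1 of 10 with a positive difference (0.151 percentage points, 4 of 6 libraries, exact permutation p = 0.41), on 33 sites, and it turned negative with sites joined at 50 nt.

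At sites of miR-181 the miR-19 share was lower in the knockout, as was that of other miRNAs. The 4886 sites were those with at least 3 miR-181-5p reads in each of the 3 enriched wild-type libraries, and 377 miR-19 reads lay at 196 of them. They held 8.52%, 7.87% and 8.66% of miR-19 reads in the wild type and 7.22%, 6.00% and 5.77% in the knockout. The groups did not overlap (8.35% ± 0.420 against 6.33% ± 0.777, SD, n = 3 each; exact permutation p = 0.1, adjusted p = 0.15). Other reads outside the miR-181 family went from 9.96% ± 0.109 to 8.72% ± 0.110, also without overlap (exact permutation p = 0.1, adjusted p = 0.15). The difference between these differences was not tested. The sites were chosen in the wild type alone, with no matching choice in the knockout. What this choice adds to the lower knockout shares was not tested.

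miR-19 contacts lay nearer the annotated gene end than those of other miRNAs, again in a comparison added after the data were seen. Over protein-coding genes of known strand, 34.5%, 33.3% and 39.6% of miR-19 reads lay within 5000 nt of the end in the wild type and 39.6%, 37.4% and 38.5% in the knockout. For other miRNAs outside the miR-181 family the share was between 31.9% and 33.1%. miR-19 was higher in 6 of 6 libraries, by 4.68 percentage points on average (37.1% ± 2.67 against 32.5% ± 0.539, SD, n = 6; exact two-sided sign-flip permutation p = 0.031, the smallest possible). Within 2000 nt, and within the last 10% of the gene, 5 of 6 libraries were higher (exact permutation p = 0.0625 for each). Among 41 miRNAs with at least 500 such reads, miR-25-3p was at rank 1 and miR-484 at rank 2, both with 41.7%, miR-130b-3p was at rank 3 with 40.5%, miR-301a-3p at rank 4 with 38.6%, next to miR-19b at 37.1%, and miR-19a at rank 9 with 34.9%.

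**Figure D5:**
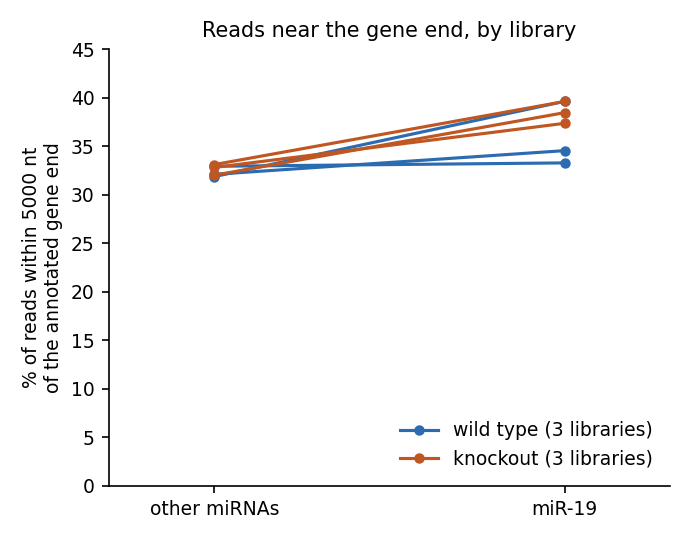
Percent of reads within 5000 nt of the annotated end of protein-coding genes for other miRNAs and for miR-19, with a line for each of 3 wild-type and 3 knockout libraries. Every line rises to the right, from 31.9% to 33.1% for other miRNAs to 33.3% to 39.6% for miR-19.

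Known targets and pathways of miR-19 were read through gene lists. Beside them, 39.8% of the 5298 genes tested had any miR-19 read, and the median miR-19 share of a gene's reads other than miR-181 was 0%. Of 16 published miR-19 targets, 11 had miR-19 reads, 43 in all. Among the 11 that were tested, 9 had miR-19 reads, and the median share was 1.48%. Here and below, counts of genes with reads are over whole lists unless tested genes are named, unlike the 39.8%. A gene with more reads of any miRNA is more likely to have 1 of miR-19, and the lists were not matched for reads. Socs1 was the 1 gene of the list called higher. Tnfaip3, encoding the NF-κB inhibitor A20, had 5 of 46 reads, all at 1 site 47 nt before the gene end (0, 2 and 0 against 1, 1 and 1; log2 fold change 2.91, adjusted p = 0.12). Bcl2l11, encoding the pro-apoptotic protein Bim, had 1 read beside 52 of other miRNAs. Cyld, Rnf11, Zbtb16, Kdm2a and Ccnd1 had 0.

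In the PI3K signalling list, 11 of 20 genes had miR-19 reads and none of 17 tested was called. Rictor, encoding the defining subunit of mTORC2, had 11 of 302 reads (3.64%), while the kinase subunit gene Pik3ca had 2 and Foxo1 and Foxo3 had 1 each. In the NF-κB list 6 of 16 genes had reads, in the TGF-β and Smad list 6 of 14, and in the Bcl2 family 5 of 12, again with none called. Skil, encoding a repressor of Smad signalling, had 5 of 45 reads (11.1%, adjusted p = 0.12). In T-cell receptor signalling 14 of 20 genes had reads, 41 in all, with a median share of 1.09% over 19 tested. Lck, the kinase that starts the receptor's signal, had 1, 1 and 1 reads in the wild type and 1, 0 and 2 in the knockout, or 6 of 63 (9.52%, adjusted p = 0.10), whereas Ptprc, encoding the phosphatase CD45, had 11 of 824 (1.33%).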

How the data were processed

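Each deposited file lists chimeric reads, 1 line per read with its miRNA, and lines were used as counts. Per the submitters' processing notes, Bowtie2 2.4.5, SAMtools 1.11, STAR 2.7.10, UMI-tools 1.1.1 and bedtools 2.30.0 were used, with builds mm10 and GRCm38.p6 and no step named for each. Identical lines made up 0.463% to 1.72% of miR-19 reads per library and were kept, with counting once as an alternative. Positions were named by RefSeq GRCm38.p6 gene spans on the same strand (79.9% of protein-coding genes have one in the tables used), and 93.3% of Ago2 IP reads got a name.

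Counts were tested with edgeR 4.0.16 (quasi-likelihood test, TMM scaling, low counts removed by filterByExpr at 10, adjusted p at most 0.05 by Benjamini-Hochberg), with DESeq2 1.42.0 as an alternative, in R 4.3.3. Shares were tested over libraries by exact permutation. Scripts were tested on simulated data. There, as in the data, TMM moved the sparse miR-19 columns against other miRNAs, so both scalings are given. The genes named were those with at least 3 miR-19 reads in every library, the 5 of smallest p in each direction of each gene test, the gene lists and the reproducible sites. Other genes were chosen after their values were seen. The members and lists were chosen with earlier results of these data known. Intervals and floors cover counting error only, and 3 reads correspond to 0.00364% to 0.0101% of a library's reads other than miR-181. Seed matches in the genome around sites were not analysed here.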

Additional observations from a re-analysis of the deposited data

Results flagged for a closer look

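Libraries enriched for miR-181 also held miR-19 reads. Those of the wild type served above only to choose miR-181 sites, and those of the knockout entered no comparison. The 3 knockout libraries held 140 among 38282 reads, or 1.27% ± 0.276 (SD, n = 3) of reads other than miR-181. The 3 wild-type libraries held 105 among 741279, or 1.29% ± 0.386 (SD, n = 3) of reads other than miR-181. These are above the limit that a count of 0 allows.

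The opposite arms of the miR-19 hairpins, which were no members, also had reads in the 6 Ago2 IP libraries. miR-19a-5p had 18, miR-19b-1-5p had 21 and miR-19b-2-5p had 11, against 1029 for miR-19a-3p and 4110 for miR-19b-3p.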

How the results depend on the processing

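With all reads as the denominator, the knockout minus wild-type difference of the miR-19 share turned to 0.299 and that of miR-19b to 0.201 percentage points. That of miR-19a ran from -0.0252 to 0.0396 with a library left out. miRNA calls numbered 89 with library sizes alone, 22 without a filter, 16 with the replicate block and 2 to 19 with a library left out (2 without wild-type replicate 1, 6 without wild-type replicate 2, 19 without knockout replicate 2). The replicate numbers did not pair the samples (correlations -0.184, -0.0114 and 0.00128 over 113 miRNAs). The block put miR-19b past the threshold (adjusted p = 0.018 by edgeR). The log2 fold change was 0.53 for miR-19a and 0.29 for miR-19b with library sizes alone, and -0.13 to 0.11 for miR-19a with a library left out.

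Of miR-19 features tested for the knockout with at least 10 reads, 1 was called, and 0 to 2 with a library left out (0 without wild-type replicate 1, 2 without knockout replicate 1, 1 without any other). For miR-19 against other miRNAs, 7 genes were called in the wild type alone, 1487 with at least 10 reads under TMM, and 15 to 53 with a library left out (53 without wild-type replicate 3). With library sizes alone, 7 were called in the wild type, 4 in the knockout, and 11 without knockout replicate 1, 12 without knockout replicate 3 or wild-type replicate 2, and 13 without wild-type replicate 1 or 3. In 1 genotype alone, with TMM, Mylip (knockout, adjusted p = 0.14), Socs1 (wild type, 0.19), Suz12 (knockout, 0.20) and Ccm2 (knockout, 0.27, and wild type, 0.077) missed the threshold by edgeR, with fewer libraries in the fit.

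Reproducible sites numbered 23 with at least 1 read, 0 with at least 5 and 1 with identical reads once. The partner difference for the miR-17 family turned to 0.31 (at least 1 partner read), 0.33 (at least 10), 0.30 (identical reads once) and 0.54 (50 nt). It turned for miR-18 (0.0262), miR-30 (0.15) and miR-26 (0.0378) with at least 10, for miR-30 (0.17) with identical reads once, and for miR-130 and miR-301 (-0.0338) at 50 nt. The cause of these changes was not tested. Most genes held 1 miR-19 read, and genes with under 10 were not tested for a change in the knockout. Seed matches were not run, for want of a genome here.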
